A study of Danio rerio with 23 samples.

Results

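The genes described here encode digestive enzymes of the exocrine pancreas, proteins of the intestinal brush border and acidic chitinases of the zebrafish larva. They were chosen by symbol, with earlier results of these data known. The names taken begin with prss, ctrb, ctrl, cela, ela2, ela3, cpb1, amy2, pnlip, chia, mep1 or slc15a1, or with cpa and a digit. Also taken were the names cel, try, ptf1a, anpep, vil1, fabp2 and dpp4 with their copies. Of the 22856 genes listed in the counts, 46 met this rule, and 10 further genes that the rule names were not analysed here. By role, 4 genes belonged to the trypsin family, 11 were chymotrypsins or elastases, 5 were carboxypeptidases and 5 were lipases or amylases. These 25 genes are called pancreatic enzymes below, although CPA6 among them is not known as a pancreatic zymogen. A further 10 genes were of the brush border and 6 were chitinases, 1 was the acinar transcription factor PTF1A, and 4 were other genes with a prss name. Symbols are written as the name table gives them, and where several rows carry 1 symbol (14 of the 46 genes, under 7 symbols) the Ensembl gene ID is added, since such copies could share reads in the counting.

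RNA was sequenced from whole larvae at 96 hours post fertilization (hpf), in 23 libraries that were each made from 1 clutch of 20 larvae. All larvae carried the transgene Tg(fli1:EGFP), in which the fli1 promoter drives EGFP in endothelial cells, and none of these groups was treated. WT (6 libraries) carried neither mutation, AKR1A1AKO (5 libraries) lacked akr1a1a, GLO1KO (6 libraries) lacked glo1, and DKO (6 libraries) lacked both genes. The mutations had been made with CRISPR/Cas9, and DKO fish and the matching WT lines descended from intercrosses of double heterozygous fish. Total counts ran from 34316505 to 36804418 per library. Reads of glo1 (ENSDARG00000068978) numbered 2861 to 3411 per WT library and 2678 to 3175 per AKR1A1AKO library, but 100 to 116 per GLO1KO library and 89 to 137 per DKO library. No counts of akr1a1a were analysed, which limits this check of the labels to the glo1 genotype.

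Acinar cells of the pancreas make most of their protein as zymogens, the inactive precursors of proteases, which they secrete into the gut together with lipase and amylase. Trypsin, once cleaved, activates the other zymogens. In the intestine, enterocytes carry peptidases and transporters on their microvilli, where the last steps of protein digestion and the uptake of peptides take place. The zebrafish larva begins to use this system around the time when its yolk is exhausted.

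Levels are given as CPM (counts scaled to library size, here with TMM factors), and fold changes on the log2 scale with a standard error (SE). The SE was computed back from edgeR's quasi-likelihood test, as the absolute log2 fold change divided by the square root of the F statistic. A gene was called higher or lower when its Benjamini-Hochberg adjusted p over all genes tested in edgeR's quasi-likelihood test was below 0.05 and its fold change was above 1.5. Each library was a separate clutch, and p-values measure the spread between these clutches. Of the 46 members, 5 were counted too rarely to be tested in any comparison. Among them were cela1.3 (ENSDARG00000043173), with at most 10 counts in a library, cela1.5 (ENSDARG00000043168), with 1 count in all libraries together, MEP1B (ENSDARG00000037533), with at most 12, and prss60.1, with at most 8. PRSS35 (ENSDARG00000059081), with at most 18, was tested in none of the 5 comparisons of 2 genotypes with all their libraries. The other 40 members entered at least 1 comparison of 2 genotypes.

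WT replicates 1 and 2 stood apart from the other WT libraries for these genes, so counts of calls against WT, and values of many of the named genes, are also given without them. Summed over the 25 pancreatic enzymes, their levels were 2497 and 1728 CPM, while WT replicates 3 to 6 lay between 644.2 and 725.8 CPM. WT replicate 1 was the highest WT library for 36 of the 41 members tested, against 27.1% of all genes. In the same way AKR1A1AKO replicate 3 was the highest of its group for 32 of 41 members (21.3% of all genes), and GLO1KO replicate 6 the lowest of its group for 31 of 41 (21.3% of all genes). GLO1KO replicates 1 and 2, with pancreatic enzyme sums of 577.0 and 505.1 CPM, were highest for 18 and 15 members (16.7% and 15.9% of all genes). In DKO, replicates 5 and 6 were highest most often, for 13 and 10 members (17.1% and 16.9% of all genes). In RNA of whole larvae, fewer cells of a type and less RNA per cell cannot be told apart.

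The summed level of the pancreatic enzymes was 1154 ± 781.7 CPM (SD, n = 6) in WT, 475.6 ± 202.5 (SD, n = 5) in AKR1A1AKO, 371.0 ± 163.4 (SD, n = 6) in GLO1KO and 774.5 ± 133.5 (SD, n = 6) in DKO larvae. The GLO1KO libraries, from 165.6 to 577.0 CPM, all lay below the DKO libraries, from 597.6 to 934.0 CPM, and below the WT libraries. The DKO libraries spanned the range of WT replicates 3 to 6. AKR1A1AKO, from 300.9 to 751.4 CPM, overlapped every other genotype. The 10 brush border genes summed to 430.9 ± 210.7 CPM (SD, n = 6) in WT, 209.3 ± 55.79 (SD, n = 5) in AKR1A1AKO, 113.4 ± 31.29 (SD, n = 6) in GLO1KO and 210.3 ± 47.52 (SD, n = 6) in DKO larvae. Their DKO libraries, from 160.1 to 268.6 CPM, lay above all GLO1KO libraries and below all WT libraries, which ran from 277.3 to 785.6 CPM. The 6 chitinases summed to 185.4 ± 99.3 CPM (SD, n = 6) in WT, 88.37 ± 33.9 (SD, n = 5) in AKR1A1AKO, 44.85 ± 18.74 (SD, n = 6) in GLO1KO and 103.7 ± 36.6 (SD, n = 6) in DKO larvae. These sums are descriptions and were not tested, because the genes were chosen with results of these data known.

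**Figure D1:**
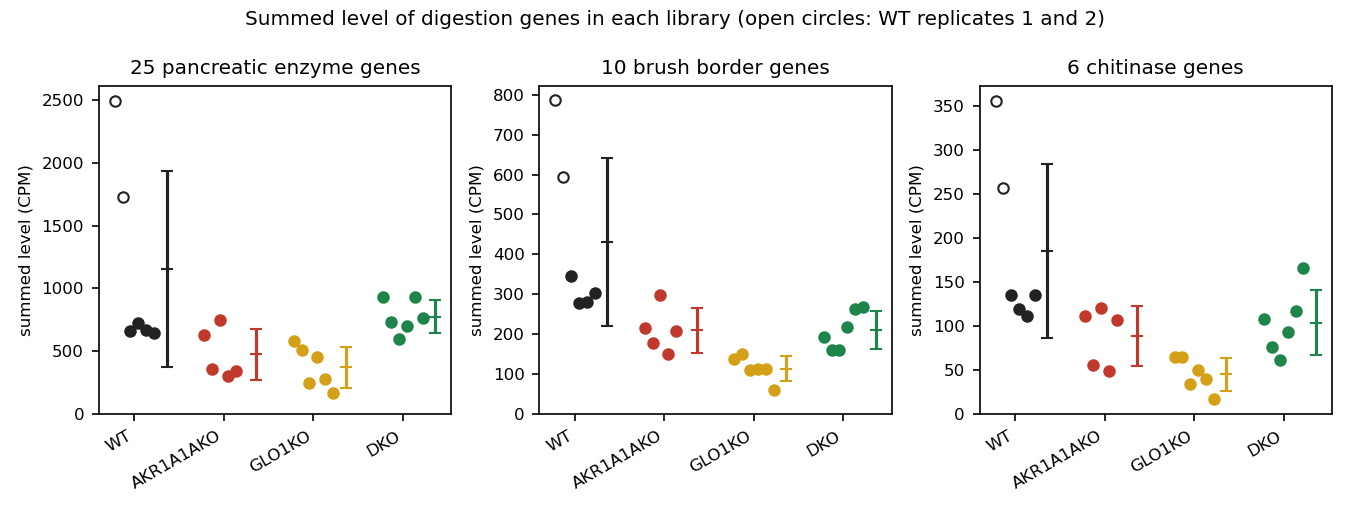
Summed level in CPM of the 25 pancreatic enzyme genes, the 10 brush border genes and the 6 chitinase genes in each of the 23 libraries, by genotype. Each circle is 1 library, open circles are WT replicates 1 and 2, and the bar beside each genotype is its mean ± SD. The pancreatic enzyme sums of the 6 GLO1KO libraries, at most 577.0 CPM, sit below those of the 6 DKO libraries, at least 597.6 CPM, and WT replicates 1 and 2 sit above all other libraries in each panel.

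Of the 3 knockouts, GLO1KO larvae had the most digestion genes called lower than WT. Among the 39 members tested in GLO1KO against WT, 32 were lower and none was higher, with a median log2 fold change of -1.81, while 17.7% of all 19758 genes tested were lower, 6.85% were higher and the median of all genes was -0.01. For 25 of the 39 the GLO1KO libraries all lay below the WT libraries, as did 20.1% of all genes. With WT replicates 1 and 2 left out, 29 of 40 members were lower and the median was -1.05, while 20.5% of all genes were then called in either direction. Single values then lay nearer 0, at -0.86 for prss1, -1.04 for prss59.1, -1.145 for CPA1 (ENSDARG00000021339), -1.55 for CEL (ENSDARG00000029822), -2.09 and -1.92 for SLC15A1 (ENSDARG00000044528 and ENSDARG00000100315), -1.48 for chia.2 and -2.06 for chia.3. In AKR1A1AKO against WT, 26 of 40 members were lower and none was higher, with a median of -1.11, against 9.28% lower and 2.26% higher of all 19892 genes tested. The AKR1A1AKO libraries lay wholly below WT for 6 of these 40 and wholly above for none, against 8.88% and 9.96% of all genes. Of the 26 calls, 12 held whichever single library was left out. The counts moved with few libraries. Without AKR1A1AKO replicate 4, 12 of 40 members were called (9.03% of all genes), and 15 of 41 without AKR1A1AKO replicate 2 (10.8% of all genes). Without WT replicates 1 and 2 together 11 of 39 were called, the median was -0.50 and 6.72% of all genes were called.

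Fewer members were called when DKO larvae were compared to WT. In DKO against WT, 15 of 40 members were lower and none was higher, with a median log2 fold change of -0.60, while 18.0% of all 19765 genes tested were lower and 7.32% were higher. The pancreatic enzymes, with 5 of 22 lower (22.7%), were near this background, whereas 6 of 9 brush border genes and 4 of 6 chitinases were lower. The DKO libraries lay wholly below WT for 6 members, against 18.4% of all genes. With WT replicates 1 and 2 left out, 7 of 40 members were lower and 3 were higher, near the 15.5% lower and 5.96% higher (21.4% in either direction) of all genes, and the median was 0.08, with 24 members above 0. The 3 higher members were amy2al2, with a log2 fold change of 1.29, CPA1 (ENSDARG00000030915), with 1.02, and chia.3, with 0.79. Scaling by library size alone, which moved the median of all genes to -0.18, gave 19 members lower and none higher. In that setting 28% of all genes were called in either direction.

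Against GLO1KO, 28 of 39 members were higher in DKO and none was lower, with a median log2 fold change of 0.94, while 2.98% of all 19581 genes tested were higher and 4.24% were called in either direction. For 16 members all DKO libraries lay above all GLO1KO libraries, against 4.56% of all genes. Against AKR1A1AKO, 13 of 39 members were higher in DKO and 1, chia.5, was lower, with a median of 0.27, while 3.76% of all 19745 genes tested were higher and 8.11% were lower. The higher members were 12 pancreatic enzymes and chia.3, and none of the 9 brush border genes tested was called. This count depended on the fit, since 1 fit of all 23 libraries called 8 of 41 members, 7 of them higher, against 11.8% of all genes. Leaving out single libraries gave 10 to 18 of 39, against 10.7% to 12.7% of all genes. In the fit of all 23 libraries the calls of prss59.1, prss59.2, ctrb.2, amy2a and CEL (ENSDARG00000017490) were among those lost. In DKO against GLO1KO the same fit called 20 of 41 members, against 3.93% of all genes. There the calls of prss59.2, ctrb.1, ctrl, ela3l, CPA1 (ENSDARG00000021339), amy2a and chia.1 were among those lost. The ranges in DKO against AKR1A1AKO were apart upward for 4 members and downward for chia.5, against 11.7% and 12.2% of all genes. The comparisons against WT share the WT libraries and those of DKO share the DKO libraries, so their values stand side by side here and are not independent.

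The interaction asked whether losing akr1a1a changed a gene differently in larvae without glo1 (DKO against GLO1KO) than in larvae with it (AKR1A1AKO against WT). It thereby sets WT and DKO together against both single knockouts. WT and DKO lines came from intercrosses of double heterozygous fish, whereas the single knockout lines were established separately. Line origin therefore cannot be told apart from this term, and was not tested. Of 41 members tested, 31 had a higher and none a lower interaction, with a median of 2.28 on the log2 scale, while 10.2% of all 20136 genes tested were higher and 3.15% were lower. In the former background the loss of akr1a1a went with higher levels of these genes, in the latter with lower levels. With WT replicates 1 and 2 left out the interaction was higher for 28 members, against 7.18% of all genes, and the median was 1.55. By the adjusted p alone, with no fold change threshold, 61.0% of all genes passed in DKO against WT, 63.1% in GLO1KO against WT, 37.6% in AKR1A1AKO against WT, 16.6% in DKO against GLO1KO, 41.1% in DKO against AKR1A1AKO and 31.8% in the interaction. The members that passed then numbered 15, 33, 26, 28, 15 and 31 in the same order.

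**Figure D2:**
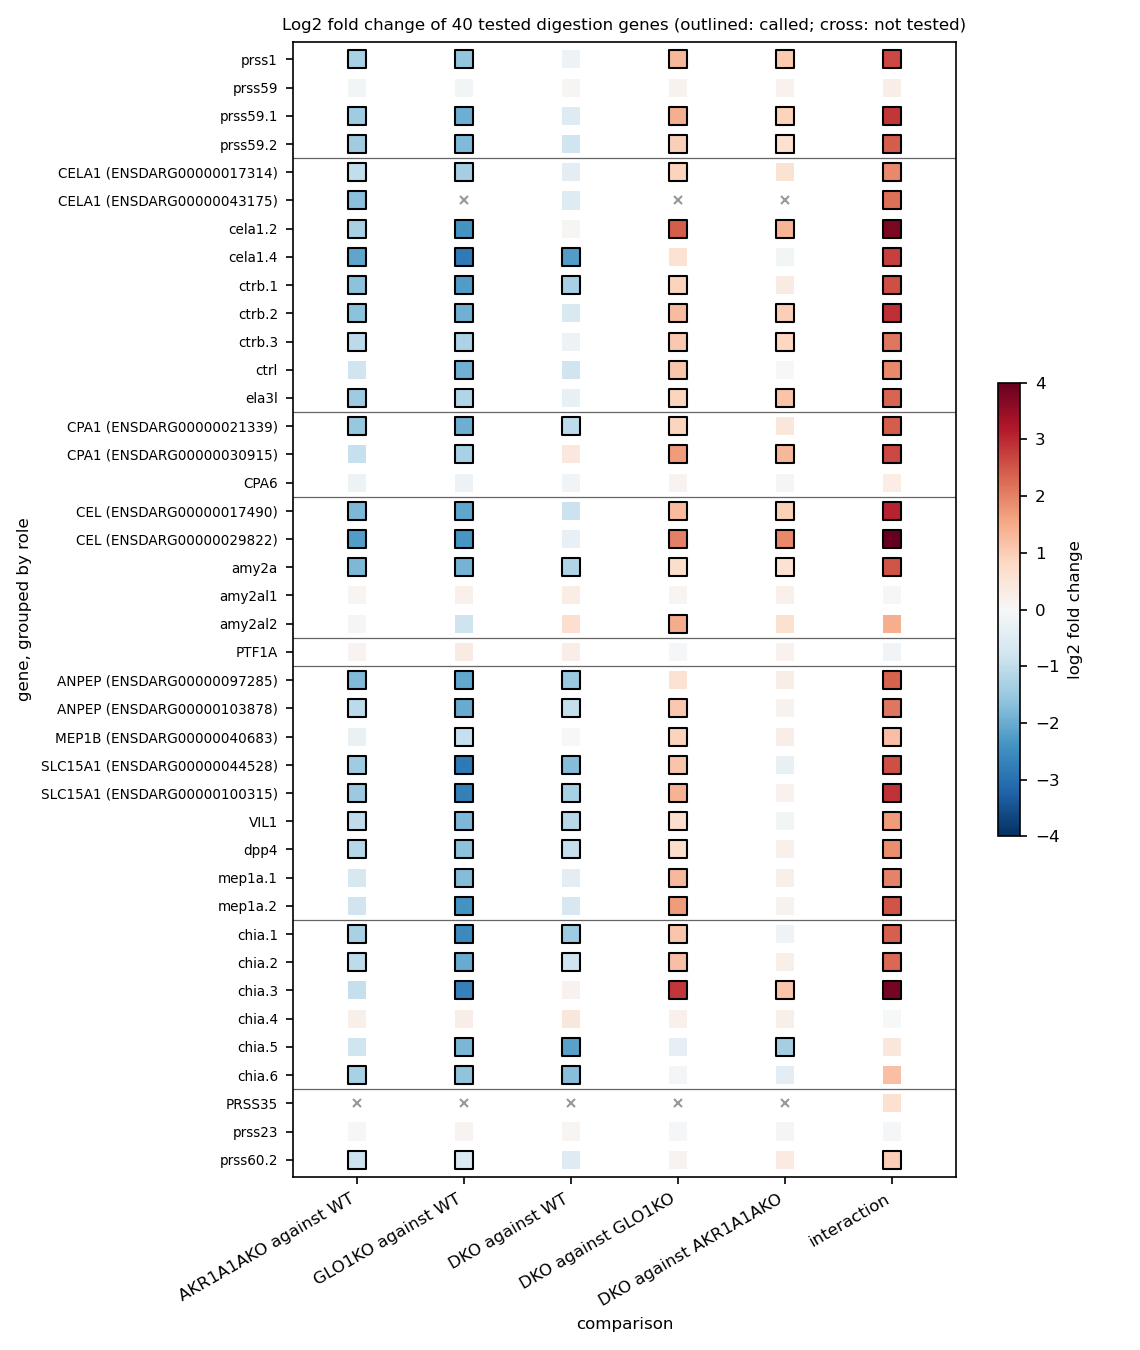
Log2 fold change (colour, blue lower and red higher) of 40 of the 41 digestion genes tested, in rows grouped by role, for 5 comparisons of genotypes and the interaction, in columns. Squares with an outline were called and grey crosses were not tested. The column of GLO1KO against WT holds 31 outlined blue squares, that of DKO against GLO1KO 27 outlined red ones, and that of DKO against WT 14 outlined blue ones, 10 of which are brush border or chitinase genes.

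Trypsin genes were lower in GLO1KO and in AKR1A1AKO larvae than in WT and were near the level of most WT libraries in DKO larvae. For prss1 (ENSDARG00000042993), which encodes trypsin, the lowest, median and highest libraries held 102, 119 and 382 CPM in WT, 23.6, 61.5 and 100.5 CPM in GLO1KO and 101, 151 and 202 CPM in DKO larvae. The 5 AKR1A1AKO libraries held 97.0, 58.7, 117, 42.9 and 52.2 CPM. All 6 GLO1KO libraries lay below all DKO and all WT libraries, and WT replicates 1 and 2, with 382 and 264 CPM, lay above every other library. By edgeR's quasi-likelihood fit, prss1 had a log2 fold change of -1.57 (SE 0.395, adjusted p = 0.00294) in GLO1KO against WT and 1.32 (SE 0.268, adjusted p = 0.00307) in DKO against GLO1KO. It was 1.06 (SE 0.227, adjusted p = 0.00167) in DKO against AKR1A1AKO and -0.25 (SE 0.305, adjusted p = 0.498) in DKO against WT. The last value turned to 0.46 (adjusted p = 0.00951), a fold change under 1.5, when WT replicates 1 and 2 were left out.

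The trypsinogens prss59.1 and prss59.2, which are neighbours in the gene order of the RefSeq annotation of GRCz12tu, went the same way. In prss59.1 (ENSDARG00000079274) the lowest, median and highest libraries were 30.5, 42.3 and 171 CPM in WT, 5.84, 17.6 and 31.0 CPM in GLO1KO and 37.9, 48.8 and 65.2 CPM in DKO larvae, and the AKR1A1AKO libraries held 33.0, 16.6, 47.2, 15.3 and 21.8 CPM. DKO and GLO1KO did not overlap, while GLO1KO and WT did, by 1 WT library at the low end. The log2 fold change of prss59.1 was -1.96 (SE 0.467) in GLO1KO against WT, with an adjusted p of 0.00201 in edgeR's test, and 1.44 (SE 0.283, adjusted p = 0.00258) in DKO against GLO1KO. For prss59.2 (ENSDARG00000073742) the lowest, median and highest libraries were 55.3, 62.3 and 241 CPM in WT, 15.4, 31.4 and 49.8 CPM in GLO1KO and 55.4, 61.2 and 89.3 CPM in DKO larvae, and GLO1KO again lay wholly below WT and DKO. In AKR1A1AKO against WT the calls of these 3 trypsin genes, at -1.31 to -1.42, were lost when WT replicates 1 and 2 were left out together, and also without AKR1A1AKO replicate 4 alone. The fourth gene of the family, prss59 (ENSDARG00000076602), did not share this pattern. Its means were 13.3 ± 1.3 CPM (SD, n = 6) in WT, 12.2 ± 1.42 (SD, n = 5) in AKR1A1AKO, 12.5 ± 1.27 (SD, n = 6) in GLO1KO and 13.8 ± 1.05 (SD, n = 6) in DKO larvae, and it was called in no comparison.

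Chymotrypsins cut proteins after large hydrophobic residues, and elastases after small ones. All 8 genes of this role that were tested in GLO1KO against WT were lower, beside 17.7% of all genes. In DKO, 7 of 8 were higher than in GLO1KO, beside 2.98% of all genes. Against WT, 2 of 9, cela1.4 and ctrb.1, were lower in DKO, and this 22.2% was near the 18.0% of all genes. In ctrb.3 (ENSDARG00000039730), a chymotrypsinogen gene, the lowest, median and highest libraries held 49.2, 51.7 and 138 CPM in WT, 14.9, 27.8 and 50.2 CPM in GLO1KO and 56.6, 66.1 and 74.4 CPM in DKO larvae. Its AKR1A1AKO libraries held 42.9, 24.8, 55.8, 27.0 and 30.9 CPM, all below the lowest DKO library. The edgeR test gave ctrb.3 a log2 fold change of 1.07 (SE 0.21, adjusted p = 0.00245) in DKO against GLO1KO and 0.86 (SE 0.167, adjusted p = 0.000777) in DKO against AKR1A1AKO. For ctrb.1 (ENSDARG00000090428), in the same gene cluster, the estimate between GLO1KO and DKO was smaller. Its lowest, median and highest libraries held 66.1, 84.9 and 401 CPM in WT, 16.2, 32.2 and 52.0 CPM in GLO1KO and 48.9, 60.2 and 82.8 CPM in DKO larvae, with 68.9, 37.7, 86.6, 30.8 and 29.5 CPM in AKR1A1AKO. For ctrb.1 the log2 fold change in edgeR's test was 0.92 (SE 0.221, adjusted p = 0.00931, a call lost in the fit of all 23 libraries) in DKO against GLO1KO and -1.33 (SE 0.397, adjusted p = 0.00932) in DKO against WT, and without WT replicates 1 and 2 the latter was -0.31 and was no longer called.

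A pair of elastase genes that lie near each other in the same RefSeq gene order, cela1.2 and cela1.4, stood in the double knockout at unlike levels relative to WT. For cela1.2 (ENSDARG00000095462), a gene of low level, the lowest, median and highest libraries held 0.320, 0.546 and 1.69 CPM in WT, 0.0296, 0.0895 and 0.257 CPM in GLO1KO and 0.513, 0.701 and 0.973 CPM in DKO larvae. The AKR1A1AKO libraries held 0.193, 0.163, 0.374, 0.222 and 0.410 CPM, so that all DKO libraries lay above all libraries of both single knockouts. For cela1.4 (ENSDARG00000043171) the lowest, median and highest libraries held 1.23, 1.85 and 6.34 CPM in WT, 0.116, 0.364 and 0.923 CPM in GLO1KO and 0.513, 0.552 and 0.981 CPM in DKO larvae, with 0.690, 0.380, 1.41, 0.334 and 0.602 CPM in AKR1A1AKO. Here all DKO libraries lay below all WT libraries and overlapped both single knockouts. In edgeR's test, cela1.2 had a log2 fold change of 0.03 (SE 0.359, adjusted p = 0.945) in DKO against WT and 2.43 (SE 0.376, adjusted p = 0.0005) in DKO against GLO1KO. The corresponding values of cela1.4 were -2.23 (SE 0.416, adjusted p = 0.000302) and 0.60 (SE 0.37, adjusted p = 0.29), and its fall against WT was still called without WT replicates 1 and 2, at -1.35. Reads that fit several of the cela1 copies could have been shared between them in the counting.

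The remaining genes of this role that were tested in GLO1KO against WT were called lower there, by 1.2 to 1.92 on the log2 scale. These ran from ela3l (ENSDARG00000007276), a call that was lost when WT replicates 1 and 2 were left out, to ctrb.2 (ENSDARG00000093844). In ctrb.2 the medians were 29.9 CPM in WT, 10.9 CPM in AKR1A1AKO, 14.4 CPM in GLO1KO and 33.5 CPM in DKO larvae, and all DKO libraries, from 26.6 to 42.7 CPM, lay above the highest GLO1KO library at 24.6 CPM. The gene ctrl (ENSDARG00000068680), a chymotrypsin-like protease, had medians of 38.0, 28.5, 14.8 and 35.9 CPM in WT, AKR1A1AKO, GLO1KO and DKO larvae, and was higher in DKO than in GLO1KO by 1.1 on the log2 scale, a call lost in the fit of all 23 libraries. It was not called in AKR1A1AKO against WT or in DKO against AKR1A1AKO. CELA1 (ENSDARG00000017314) had medians of 113, 62.2, 60.1 and 117 CPM in the same order. Its rise in DKO against GLO1KO, by 0.94, was called and that against AKR1A1AKO, by 0.57 (adjusted p = 0.0396), was a fold change under 1.5. The second CELA1 row (ENSDARG00000043175), with at most 1.08 CPM, was tested only in AKR1A1AKO against WT, DKO against WT and the interaction.

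Carboxypeptidases remove single residues from the end of the peptides that the endoproteases leave. CPA1 (ENSDARG00000021339) held 62.6, 72.3 and 282 CPM as its lowest, median and highest values in WT, 14.5, 31.9 and 43.9 CPM in GLO1KO and 47.8, 54.0 and 73.3 CPM in DKO larvae. The AKR1A1AKO libraries held 60.5, 32.4, 59.8, 28.7 and 27.7 CPM. GLO1KO lay wholly below both DKO and WT, and DKO overlapped WT. In edgeR's test this CPA1 had a log2 fold change of -1.96 (SE 0.396, adjusted p = 0.000553) in GLO1KO against WT and 0.90 (SE 0.21, adjusted p = 0.00748) in DKO against GLO1KO. In DKO against WT it was -1.06 (SE 0.34, adjusted p = 0.0138), but -0.24 and not called without WT replicates 1 and 2.

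The other CPA1 row (ENSDARG00000030915) had the larger rise in DKO. It held 0.970, 1.83 and 4.00 CPM as its lowest, median and highest values in WT, 0.378, 0.774 and 1.70 CPM in GLO1KO and 1.93, 2.89 and 4.26 CPM in DKO larvae, and its AKR1A1AKO libraries held 1.54, 0.759, 0.891, 0.445 and 2.30 CPM. All DKO libraries lay above all GLO1KO libraries. For this CPA1 the log2 fold change was 1.71 (SE 0.306, adjusted p = 0.00133) in DKO against GLO1KO and 1.34 (SE 0.337, adjusted p = 0.00508) in DKO against AKR1A1AKO in edgeR's test. CPA6 (ENSDARG00000012013), which in mammals acts in the extracellular matrix and is no pancreatic zymogen, had medians from 2.29 CPM in GLO1KO to 2.52 CPM in WT and was called in no comparison.

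Carboxyl ester lipase, which is activated by bile salts and splits cholesterol esters and other lipids, is encoded here by 2 rows named CEL. For CEL (ENSDARG00000029822) the lowest, median and highest libraries held 2.91, 3.50 and 12.5 CPM in WT, 0.494, 1.19 and 1.52 CPM in GLO1KO and 3.65, 4.34 and 6.80 CPM in DKO larvae. The AKR1A1AKO libraries held 1.44, 1.11, 1.90, 0.917 and 0.629 CPM. Both single knockouts lay wholly below WT and wholly below DKO, and DKO lay within the WT range. WT replicates 3 to 6, from 2.91 to 3.55 CPM, lay below all DKO libraries. Without WT replicates 1 and 2, the log2 fold change in DKO against WT turned from -0.33 to 0.48. The latter had an adjusted p of 0.0234 in edgeR's test and was a fold change under 1.5. In edgeR's test the log2 fold change of this CEL was -2.36 (SE 0.405, adjusted p = 0.00015) in GLO1KO and -2.24 (SE 0.442, adjusted p = 0.00305) in AKR1A1AKO against WT, where it was -1.44 without WT replicates 1 and 2. It was 2.03 (SE 0.223, adjusted p = 2.51e-05) in DKO against GLO1KO and 1.92 (SE 0.237, adjusted p = 1.81e-05) in DKO against AKR1A1AKO. Its interaction, 4.28 (SE 0.517, adjusted p = 7.09e-06), was the largest among the 41 members tested, and was 3.48 without WT replicates 1 and 2.

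The other CEL row (ENSDARG00000017490) moved in the same directions, with smaller estimates in DKO against both single knockouts. The lowest, median and highest libraries held 4.86, 6.23 and 26.1 CPM in WT, 1.43, 2.55 and 3.67 CPM in GLO1KO and 4.86, 6.05 and 7.69 CPM in DKO larvae, and the AKR1A1AKO libraries held 3.78, 1.82, 4.86, 2.50 and 2.79 CPM. The log2 fold change of this row was 1.26 (SE 0.207, adjusted p = 0.000702) in DKO against GLO1KO and 0.94 (SE 0.2, adjusted p = 0.00161) in DKO against AKR1A1AKO in edgeR's test, the latter a call lost in the fit of all 23 libraries.

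**Figure D3:**
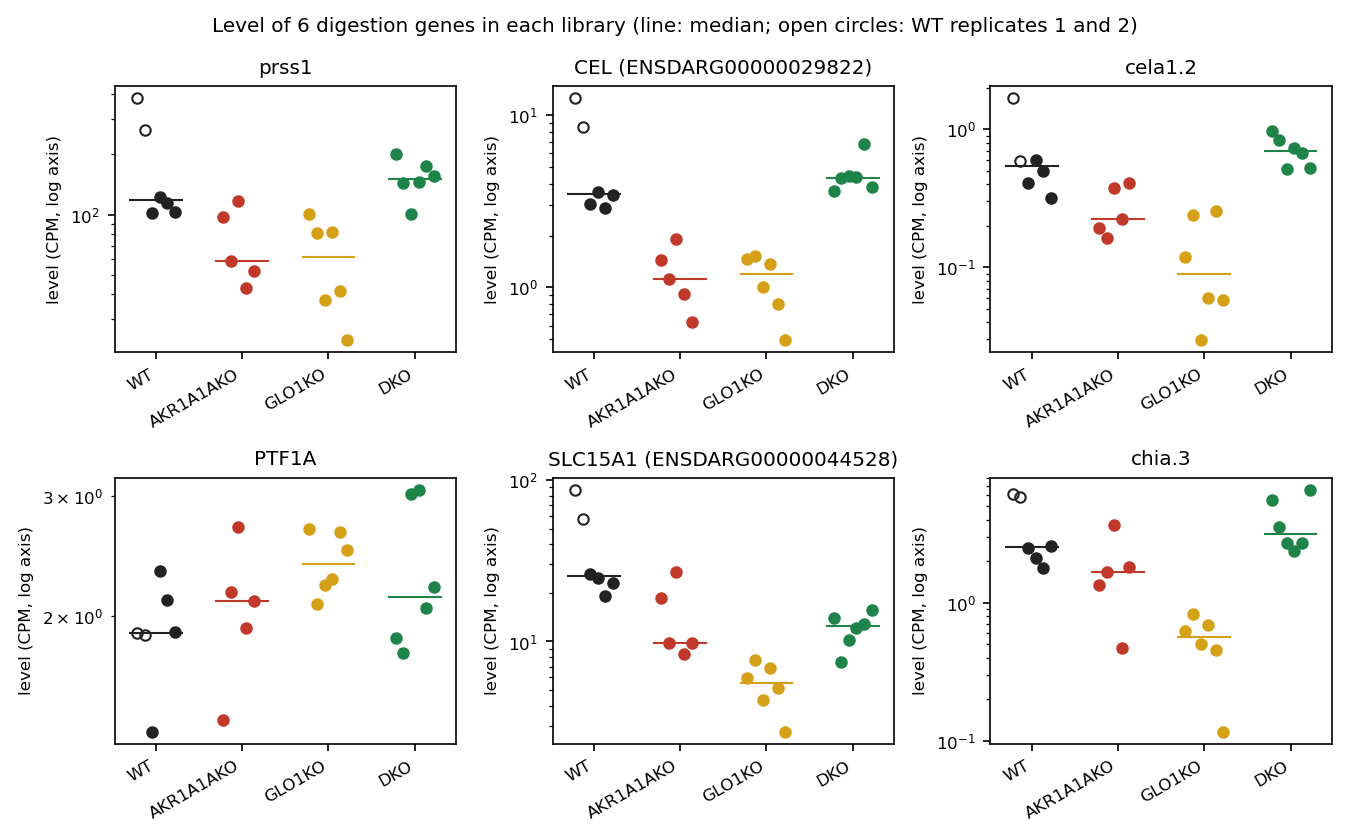
Level in CPM, on log axes, of prss1 (trypsin), CEL (ENSDARG00000029822, carboxyl ester lipase), cela1.2 (elastase), PTF1A (acinar transcription factor), SLC15A1 (ENSDARG00000044528, peptide transporter) and chia.3 (chitinase) in each library, by genotype. Each circle is 1 library, lines are medians and open circles are WT replicates 1 and 2. In CEL all AKR1A1AKO and GLO1KO libraries, at most 1.90 CPM, sit below all DKO libraries, at least 3.65 CPM, whereas the 4 genotypes overlap in PTF1A.

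Starch is digested by alpha-amylase. The amylase gene amy2a (ENSDARG00000013856) held 5.23, 6.57 and 43.4 CPM as its lowest, median and highest values in WT, 2.15, 3.85 and 5.16 CPM in GLO1KO and 4.93, 6.31 and 7.84 CPM in DKO larvae, with 4.30, 3.34, 6.29, 2.59 and 4.16 CPM in AKR1A1AKO. WT replicate 1, at 43.4 CPM, lay far above the next WT library at 18.6 CPM. In DKO against WT its log2 fold change, -1.19 (SE 0.472, adjusted p = 0.0402 in edgeR's test), was lost without WT replicate 1, WT replicate 2 or any 1 of the 6 DKO libraries. It turned to 0.07 (adjusted p = 0.684) without both of these WT libraries. In GLO1KO against WT the fall of amy2a, by 1.89 (SE 0.505, adjusted p = 0.00441), was kept without them, at -0.63.

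The amylase-like amy2al2 (ENSDARG00000009443) spread widely within genotypes. It held 4.70, 8.14 and 19.5 CPM as its lowest, median and highest values in WT, 1.71, 4.63 and 13.5 CPM in GLO1KO and 10.03, 12.8 and 29.5 CPM in DKO larvae, and its AKR1A1AKO libraries ranged from 4.81 to 20.6 CPM. All genotypes overlapped. It was called only in DKO against GLO1KO, with a log2 fold change of 1.49 (SE 0.388, adjusted p = 0.0145 in edgeR's test). The related amy2al1 (ENSDARG00000030357), with medians from 1.19 to 1.60 CPM, was called in no comparison.

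PTF1A (ENSDARG00000014479), a transcription factor needed to form the pancreas and to maintain acinar cells, is also made by neurons of the hindbrain and the retina. It held 1.35, 1.89 and 2.32 CPM as its lowest, median and highest values in WT, 2.08, 2.39 and 2.68 CPM in GLO1KO and 1.76, 2.13 and 3.06 CPM in DKO larvae, and the AKR1A1AKO libraries held 1.41, 2.17, 2.70, 1.92 and 2.11 CPM. The genotypes overlapped. Its log2 fold change in GLO1KO against WT was 0.33 (adjusted p = 0.0421 in edgeR's test), a fold change under 1.5, so PTF1A was called in no comparison.

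With all 6 WT libraries, most brush border genes were lower in all 3 knockouts than in WT. Of 9 tested, 9 were lower in GLO1KO, 6 in AKR1A1AKO and 6 in DKO larvae against WT, beside 17.7%, 9.28% and 18.0% of all genes. In DKO, 8 were higher than in GLO1KO, and all 9 had a higher interaction, beside 2.98% and 10.2% of all genes. With WT replicates 1 and 2 left out, 3 of the 6 calls in DKO against WT were kept, those of SLC15A1 (ENSDARG00000044528), VIL1 and ANPEP (ENSDARG00000097285), and 7 of the 9 genes lay below 0. Of all genes, 15.5% were then lower. Against these 4 WT libraries 9 of 9 were lower in GLO1KO and 4 of 9 in AKR1A1AKO, beside 15.2% and 5.31% of all genes.

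SLC15A1 is the transporter that takes up dipeptides and tripeptides from the gut lumen. In SLC15A1 (ENSDARG00000044528) the lowest, median and highest libraries held 19.03, 25.4 and 87.3 CPM in WT, 2.76, 5.55 and 7.65 CPM in GLO1KO and 7.49, 12.5 and 15.6 CPM in DKO larvae, and the AKR1A1AKO libraries held 18.6, 9.76, 27.1, 8.42 and 9.74 CPM. DKO lay wholly below WT, and its lowest library lay just below the highest GLO1KO library. In edgeR's test its log2 fold change was -2.86 (SE 0.381, adjusted p = 1.58e-05) in GLO1KO and -1.73 (SE 0.344, adjusted p = 0.000508) in DKO against WT. In DKO against GLO1KO it was 1.13 (SE 0.199, adjusted p = 0.00114), and in DKO against AKR1A1AKO -0.30 (SE 0.268, adjusted p = 0.396). The value in DKO against WT was -0.96 (adjusted p = 7.47e-05) when WT replicates 1 and 2 were left out.

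The other SLC15A1 row (ENSDARG00000100315) held 10.1, 11.8 and 43.4 CPM as its lowest, median and highest values in WT, 1.72, 2.60 and 4.43 CPM in GLO1KO and 4.98, 7.38 and 12.1 CPM in DKO larvae, with 7.53, 6.56, 11.2, 5.39 and 3.72 CPM in AKR1A1AKO. All GLO1KO libraries lay below all DKO libraries. Its log2 fold change was -2.73 (SE 0.399, adjusted p = 3.56e-05) in GLO1KO against WT and 1.4 (SE 0.239, adjusted p = 0.000936) in DKO against GLO1KO in edgeR's test.

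VIL1 (ENSDARG00000040466) encodes villin, which bundles the actin core of microvilli. It held 142, 168 and 377 CPM as its lowest, median and highest values in WT, 39.5, 62.2 and 80.3 CPM in GLO1KO and 78.1, 99.3 and 129 CPM in DKO larvae, and 107, 96.9, 161, 85.4 and 95.7 CPM in the AKR1A1AKO libraries. DKO lay wholly below WT and overlapped GLO1KO by its lowest library. For VIL1 the log2 fold change was -1.12 (SE 0.237, adjusted p = 0.000853) in DKO against WT and 0.69 (SE 0.144, adjusted p = 0.00366) in DKO against GLO1KO in edgeR's test. The peptidase gene dpp4 (ENSDARG00000079420), whose product removes dipeptides from the start of peptides, held 18.1, 19.4 and 45.0 CPM as its lowest, median and highest values in WT, 4.13, 8.05 and 11.3 CPM in GLO1KO and 11.1, 12.4 and 16.1 CPM in DKO larvae, with 12.6, 9.01, 15.6, 8.09 and 11.7 CPM in AKR1A1AKO. All DKO libraries lay below all WT libraries. Its log2 fold change in DKO against WT was -0.96 (SE 0.213, adjusted p = 0.0012 in edgeR's test), and -0.53 without WT replicates 1 and 2, a fold change under 1.5.

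ANPEP, aminopeptidase N, was read from 2 rows. The row ENSDARG00000103878 had medians of 68.5 CPM in WT, 41.0 CPM in AKR1A1AKO, 21.1 CPM in GLO1KO and 44.5 CPM in DKO larvae, and fell by 0.94 in DKO against WT and by 2.01 in GLO1KO against WT on the log2 scale. The row ENSDARG00000097285, with medians of 2.21, 0.862, 0.561 and 1.04 CPM in the same order, fell by 1.49 and by 2.08, and was not called in DKO against GLO1KO (0.59, adjusted p = 0.195). The meprin genes, whose products are metalloproteases of the brush border, were higher in DKO than in GLO1KO and were not called in DKO against WT. In mep1a.2 (ENSDARG00000008029) the medians were 7.75 CPM in WT, 6.43 CPM in AKR1A1AKO, 2.19 CPM in GLO1KO and 6.09 CPM in DKO larvae, and DKO lay wholly above GLO1KO. Its log2 fold change in DKO against GLO1KO was 1.71 (SE 0.332, adjusted p = 0.00243 in edgeR's test). MEP1B (ENSDARG00000040683) had a log2 fold change of -0.01 in DKO against WT and 0.91 in DKO against GLO1KO, and mep1a.1 (ENSDARG00000029747) of -0.43 and 1.31.

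Acidic chitinases split chitin, the polymer of crustacean and insect shells. The 6 genes lie in 2 groups in the RefSeq gene order of GRCz12tu, with chia.1, chia.2 and chia.3 in 1 group and chia.4, chia.5 and chia.6 in the other. In the first group all 3 genes were lower in GLO1KO than in WT and higher in DKO than in GLO1KO. In the second, chia.5 and chia.6 were lower in GLO1KO and in DKO than in WT, and chia.4 was called in no comparison.

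The largest fold change among the 39 members tested between DKO and GLO1KO was that of chia.3 (ENSDARG00000009612). Its lowest, median and highest libraries held 1.80, 2.53 and 6.11 CPM in WT, 0.116, 0.565 and 0.834 CPM in GLO1KO and 2.37, 3.14 and 6.62 CPM in DKO larvae, and the AKR1A1AKO libraries held 1.35, 1.68, 3.65, 0.473 and 1.83 CPM. GLO1KO lay wholly below WT and DKO, which overlapped each other. In edgeR's test its log2 fold change was -2.70 (SE 0.394, adjusted p = 3.6e-05) in GLO1KO against WT, 2.85 (SE 0.33, adjusted p = 3.88e-05) in DKO against GLO1KO and 0.16 (SE 0.34, adjusted p = 0.699) in DKO against WT. Against AKR1A1AKO it was 1.12 (adjusted p = 0.0268), and this call was lost without AKR1A1AKO replicate 1 or 2 or without DKO replicate 1 or 6, with adjusted p up to 0.0675. The interaction of chia.3 was 3.83 (SE 0.6, adjusted p = 9.1e-05), or 3.19 without WT replicates 1 and 2.

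Among the others, chia.2 (ENSDARG00000099185) held 97.5, 118 and 305 CPM as its lowest, median and highest values in WT, 13.2, 39.4 and 57.5 CPM in GLO1KO and 52.4, 88.7 and 149 CPM in DKO larvae, with 99.0, 45.6, 101, 41.8 and 96.6 CPM in AKR1A1AKO. Its log2 fold change was -2.03 (SE 0.348, adjusted p = 0.000145) in GLO1KO against WT and 1.21 (SE 0.281, adjusted p = 0.00747) in DKO against GLO1KO in edgeR's test. The call of chia.2 in DKO against WT, at -0.82, was lost without WT replicate 1 or 2 or DKO replicate 2 or 3. In chia.1 (ENSDARG00000100635), with medians of 10.9 CPM in WT, 5.50 CPM in AKR1A1AKO, 2.92 CPM in GLO1KO and 5.92 CPM in DKO larvae, all DKO libraries lay above all GLO1KO libraries.

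In contrast, chia.5 (ENSDARG00000116259) was lowest in DKO larvae. Its lowest, median and highest libraries held 1.09, 1.65 and 2.94 CPM in WT, 0.328, 0.557 and 0.655 CPM in GLO1KO and 0.245, 0.414 and 0.607 CPM in DKO larvae, with 1.02, 0.759, 1.78, 0.917 and 0.875 CPM in AKR1A1AKO. GLO1KO and DKO overlapped each other, and both lay wholly below AKR1A1AKO and WT. The edgeR test gave chia.5 a log2 fold change of -2.19 (SE 0.316, adjusted p = 3.13e-05) in DKO against WT and -1.37 (SE 0.283, adjusted p = 0.00124) in DKO against AKR1A1AKO. Its interaction was 0.45 (SE 0.432, adjusted p = 0.455). The neighbouring chia.6 (ENSDARG00000093193) fell by 1.70 in DKO, by 1.61 in GLO1KO and by 1.29 in AKR1A1AKO against WT on the log2 scale, and did not differ between DKO and GLO1KO by more than its error (-0.08, SE 0.309). Both kept their calls in DKO against WT without WT replicates 1 and 2, at -1.75 and -1.20.

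**Figure D4:**
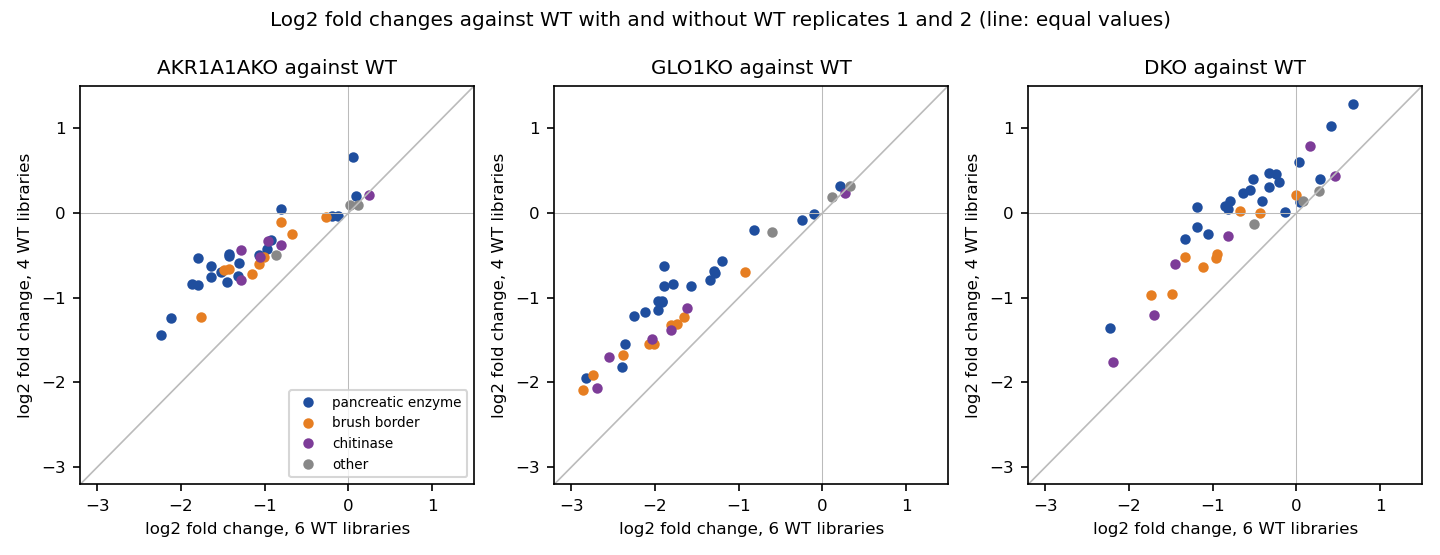
Log2 fold changes against WT of each tested digestion gene with all 6 WT libraries (horizontal axis) and with the 4 libraries left without WT replicates 1 and 2 (vertical axis), for AKR1A1AKO, GLO1KO and DKO larvae. Each point is a gene, coloured by role, and the diagonal marks equal values. All points but those of PTF1A and chia.4 lie above the diagonal, and in DKO against WT the pancreatic enzymes move from a median of -0.46 to 0.19, while brush border genes stay mostly below 0.

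Of the other genes with a prss name, prss23 (ENSDARG00000055786), a serine protease that is not known as a digestive zymogen, was level across genotypes at 16.3 ± 2.14 CPM (SD, n = 6) in WT, 16.5 ± 2.4 (SD, n = 5) in AKR1A1AKO, 17.6 ± 1.44 (SD, n = 6) in GLO1KO and 17.3 ± 2.6 (SD, n = 6) in DKO larvae, and was called in no comparison. The gene prss60.2 (ENSDARG00000055644) had medians of 3.61 CPM in WT, 2.22 CPM in AKR1A1AKO, 2.59 CPM in GLO1KO and 2.98 CPM in DKO larvae. It was lower in GLO1KO than in WT by 0.60 on the log2 scale, a call lost without WT replicate 1 or 2 or GLO1KO replicate 1, 3, 5 or 6, with adjusted p up to 0.0731. It was lower in AKR1A1AKO than in WT by 0.86 (SE 0.27, adjusted p = 0.0242 in edgeR's test), a call lost without AKR1A1AKO replicate 4 or 5. Both calls were lost without WT replicates 1 and 2, at -0.23 and -0.49.

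Ratios of pairs of genes within a library show where they moved unequally. The pairs were picked after the values were seen, so the ratios are descriptions. They are not corrected for gene length, and only their change between libraries was read. For prss1 over ctrb.1 the ratio spanned 0.952 to 1.56 in WT libraries, 1.35 to 1.77 in AKR1A1AKO libraries, 1.46 to 2.04 in GLO1KO libraries and 2.07 to 2.69 in DKO libraries, so that DKO lay above all other genotypes. WT replicates 1 and 2 had the lowest ratios of WT. The ratio of cela1.2 to cela1.4 was 0.254 ± 0.0743 (SD, n = 6) in WT, 0.464 ± 0.202 (SD, n = 5) in AKR1A1AKO, 0.334 ± 0.215 (SD, n = 6) in GLO1KO and 1.2 ± 0.46 (SD, n = 6) in DKO larvae, with the lowest DKO library, at 0.688, just below the highest GLO1KO library, at 0.692. Between the CEL rows, ENSDARG00000029822 to ENSDARG00000017490, the ratio was 0.550 ± 0.0652 (SD, n = 6) in WT and 0.754 ± 0.142 (SD, n = 6) in DKO larvae, with overlapping ranges. Between chia.3 and chia.2 it spanned 0.00881 to 0.0175 in GLO1KO libraries and 0.026 to 0.0591 in DKO libraries, which lay apart, and both AKR1A1AKO and WT overlapped the DKO range. The neighbouring mep1a.1 and mep1a.2 had a ratio of 1.77 ± 0.412 (SD, n = 6) in WT, 1.75 ± 0.151 (SD, n = 5) in AKR1A1AKO, 2.75 ± 0.747 (SD, n = 6) in GLO1KO and 1.96 ± 0.291 (SD, n = 6) in DKO larvae.

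**Figure D5:**
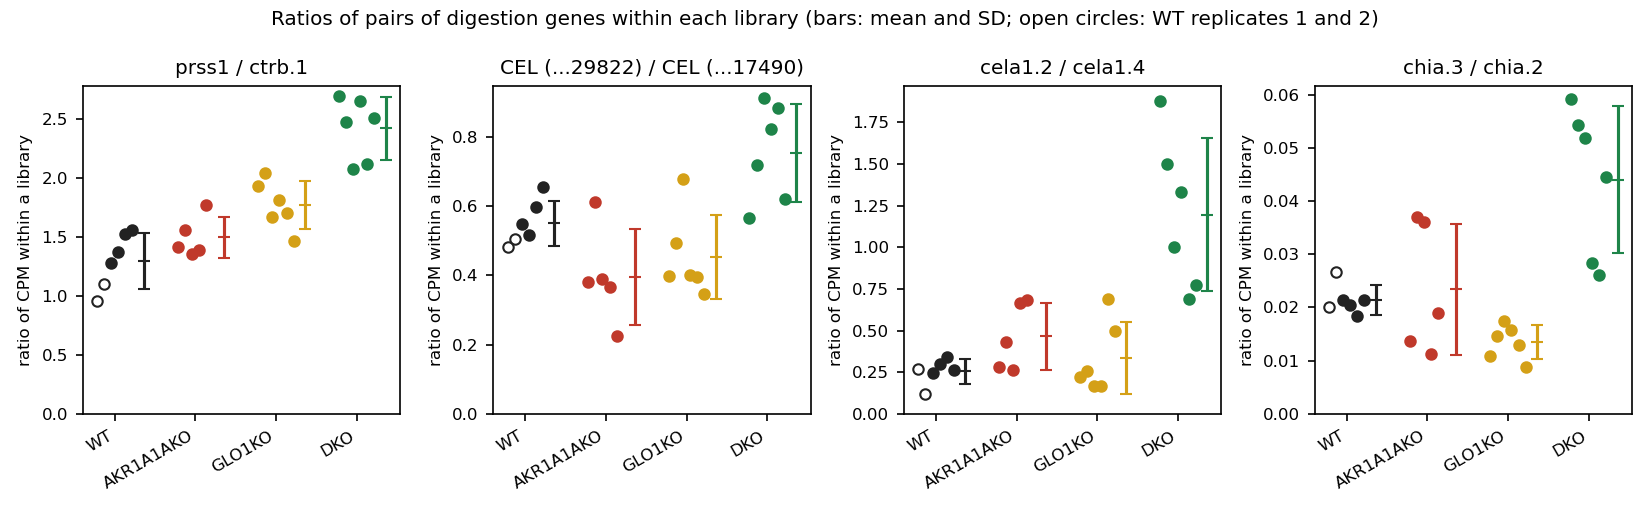
Ratio of the CPM of pairs of digestion genes within each library, by genotype, for prss1 to ctrb.1, CEL ENSDARG00000029822 to CEL ENSDARG00000017490, cela1.2 to cela1.4, and chia.3 to chia.2. Each circle is 1 library, open circles are WT replicates 1 and 2, and bars are mean ± SD. In the first panel all DKO libraries, from 2.07 to 2.69, sit above the libraries of the other genotypes, at most 2.04.

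Other genes tied to the acinar cell and to the gut were read from companion lists, and which tissues of the larva gave their RNA was not tested. The acinar companions are regulators, cofactors and genes of secretion, not all of them particular to acinar cells. Of these, 8 of 16 tested were lower in DKO against WT and none was higher, against 18.0% and 7.32% of all genes. In GLO1KO against WT 11 of 17 were lower (17.7% of all genes), and in DKO against GLO1KO 5 of 15 were higher (2.98% of all genes), with none the other way. Without WT replicates 1 and 2, 5 of 16 were lower and 1 higher in DKO, and 8 of 17 were lower in GLO1KO against WT. Of all genes, 15.5% were then lower and 5.96% higher in DKO, and 15.2% were lower in GLO1KO. The acinar companions summed to 426.0 ± 63.16 CPM (SD, n = 6) in WT, 299.0 ± 34.72 (SD, n = 5) in AKR1A1AKO, 349.5 ± 23.46 (SD, n = 6) in GLO1KO and 342.9 ± 18.83 (SD, n = 6) in DKO larvae. Their GLO1KO and DKO libraries overlapped, unlike those of the pancreatic enzymes. NR5A2 (ENSDARG00000100940), a nuclear receptor that acts on acinar genes in mice and zebrafish, fell by 0.80 (adjusted p = 6.04e-06) in GLO1KO and by 0.91 (adjusted p = 1.41e-05) in DKO against WT, and GATA6 (ENSDARG00000103589), an endodermal transcription factor, fell by 2.03 (adjusted p = 1.3e-05) and 1.59 (adjusted p = 0.000273) in edgeR's test. Of the intestinal companions, 20 of 28 were lower in GLO1KO and 13 of 29 in DKO against WT, and 12 of 27 were higher in DKO than in GLO1KO, beside the same shares of all genes. These counts against WT were 19 of 29 and 9 of 29 without WT replicates 1 and 2, with 3 of 29 then higher in DKO. The shares of all genes were then 15.2% and 15.5% lower, and 5.96% higher in DKO. DGAT2 (ENSDARG00000018846), which makes triglycerides, fell by 4.23 (adjusted p = 7.85e-06) in GLO1KO and by 3.00 (adjusted p = 8.19e-05) in DKO against WT. FABP6 (ENSDARG00000044566), the bile acid binding protein of the distal gut, was the 1 intestinal companion higher in DKO than in WT, by 0.83 (adjusted p = 4.8e-06).

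Markers of other cell types were read in the same libraries. The 12 hepatocyte markers, none of which was at 0 everywhere, had mean sums in the same order of genotypes as the mean sums of the digestion genes. Their sums were 1973 ± 849.7 CPM (SD, n = 6) in WT, 767.2 ± 333.1 (SD, n = 5) in AKR1A1AKO, 452.5 ± 122.1 (SD, n = 6) in GLO1KO and 880.4 ± 233.9 (SD, n = 6) in DKO larvae. By medians, WT lay below DKO for the pancreatic enzymes (697.4 and 744.8 CPM), but above it for the hepatocyte markers (1671 and 843.2 CPM). Medians of AKR1A1AKO lay above those of DKO for the brush border genes (207.9 and 205.2 CPM) and the chitinases (107.2 and 100.8 CPM). For the hepatocyte markers AKR1A1AKO lay below DKO (555.1 and 843.2 CPM). All 12 hepatocyte markers were lower in GLO1KO and in AKR1A1AKO than in WT, 9 were lower in DKO than in WT and 8 were higher in DKO than in GLO1KO, where the shares of all genes were 17.7%, 9.28%, 18.0% and 2.98%. Without WT replicates 1 and 2, 11, 8 and 6 of the 12 were lower in GLO1KO, AKR1A1AKO and DKO against WT. The shares of all genes were then 15.2%, 5.31% and 15.5%. The 2 libraries highest in pancreatic enzymes, WT replicates 1 and 2, were also the highest in hepatocyte markers, at 3267 and 2707 CPM. The sum of the 8 islet markers had another order, spanning 272.9 to 351.5 CPM in WT libraries, 345.6 to 425.9 CPM in AKR1A1AKO libraries, 405.1 to 464.8 CPM in GLO1KO and 384.4 to 417.4 CPM in DKO larvae, with WT replicate 1 lowest. These markers were PCSK1, PCSK2, ISL1, NEUROD1, pdx1, sst1.2, sst2 and gcga. As the RNA came from whole larvae, the cells that gave this sum are not known and were not tested. In GLO1KO against WT 2 islet markers were higher and 3 lower, beside 6.85% and 17.7% of all genes. In DKO against WT 2 of the 8 were lower, beside 18.0% of all genes. The 6 goblet and secretory markers summed to between 53.39 and 127.3 CPM, with 1 called lower in GLO1KO and in DKO against WT and 2 in AKR1A1AKO, of which the first is 16.7% of the list and near the shares of all genes. The 15 rows of neutrophil and macrophage markers came from 8 of the 12 symbols listed, and many of them carried the symbol MFAP4. They summed to 34.59 to 59.45 CPM in WT, 46.2 to 75.56 CPM in GLO1KO and 32.66 to 44.17 CPM in DKO larvae. Of the 12 rows tested, 3 were higher and 2 lower in GLO1KO against WT, beside 6.85% and 17.7% of all genes. The part of these cell types in the values of the digestion genes was not tested.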

How the data were processed

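RNA of 23 libraries of 96 hpf larvae was extracted, sequenced as strand-specific mRNA libraries, filtered and aligned to GRCz11 with HISAT2. The authors counted reads per gene with featureCounts 2.0.3 and deposited expected counts without normalization. The annotation release and the handling of strand and of reads with several matches are not given in the sources used here, so reads of near-identical copies may be shared or lost. Counts of 94 genes (0.411%) were not whole and were rounded, which touched none of the members. Planned tests assumed whole counts and were kept.

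Groups were taken from the sample labels. Each pair of genotypes was fitted by edgeR 4.0.16 in R 4.3.3 (filterByExpr, TMM, quasi-likelihood test), and the interaction over all 23 libraries. CPM is TMM scaled. Calls needed a fold change over 1.5 and an adjusted p under 0.05. Alternatives were DESeq2 1.42.0, its size factors, library size alone, no filter, limma 3.58.1 (prior count 2), no fold change threshold, a replicate block, 1 fit of all libraries and each library left out. Leaving out WT replicates 1 and 2 together was added after seeing the data. Fits were tested on simulated data. The values of 2 members are not reported here, though counts and sums over the members include them. Symbols came from a name table for 88.2% of genes. Members and lists (acinar and intestinal companions, hepatocyte, islet, goblet and secretory, neutrophil and macrophage markers) were chosen with earlier results of these data known. Named were members called in any comparison, the 3 highest by level in each role, CEL, chia.3 and PTF1A, with full values for up to 4 of a role by smallest p, and, of the companions with the 3 smallest p in DKO or GLO1KO against WT, some. Full values of ctrb.1, the values of prss59 and the ratios were chosen after their values were seen.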

Additional observations from a re-analysis of the deposited data

Results flagged for a closer look

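In 7 of 164 groups of 5 or 6 libraries examined (4.27%), 1 library lay far from the others by Dixon's test, and about 8.2 would be expected by chance, at 1 group in 20. These were cela1.2 in WT replicate 1 (1.69 CPM, others 0.32 to 0.601), amy2a in WT replicate 1 (43.4 CPM, others 5.23 to 18.6) and cela1.4 in DKO replicate 5 (0.981 CPM, others 0.513 to 0.674). The others were CEL (ENSDARG00000029822) in DKO replicate 5 (6.80 CPM, others 3.65 to 4.44), VIL1 in AKR1A1AKO replicate 3 (161 CPM, others 85.4 to 107), chia.5 in AKR1A1AKO replicate 3 (1.78 CPM, others 0.759 to 1.02) and prss23 in DKO replicate 3 (22.3 CPM, others 15.3 to 17.2). Dixon's test measures the gap between the outermost library and the next. It can therefore miss libraries that are high together, as WT replicates 1 and 2 were in pancreatic enzymes.

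The interaction term sets WT and DKO against both single knockouts, whose lines were established separately, so line origin cannot be told apart from it. By edgeR's quasi-likelihood test it was called for 31 members, and all 31 values, on the log2 scale, were positive. Of these, 30 are given here. Among trypsins they were 2.64 for prss1, 2.87 for prss59.1 and 2.42 for prss59.2. Chymotrypsins gave 2.58 for ctrb.1, 2.92 for ctrb.2, 2.15 for ctrb.3 and 1.92 for ctrl. Elastases gave 1.92 for CELA1 (ENSDARG00000017314), 2.2 for CELA1 (ENSDARG00000043175), 3.77 for cela1.2, 2.72 for cela1.4 and 2.34 for ela3l. For carboxypeptidases the values were 2.43 for CPA1 (ENSDARG00000021339) and 2.65 for CPA1 (ENSDARG00000030915). CEL gave 3.07 (ENSDARG00000017490) and 4.28 (ENSDARG00000029822), and amy2a gave 2.50. In the brush border the values were 2.36 and 2.15 for ANPEP (ENSDARG00000097285 and ENSDARG00000103878), 1.2 for MEP1B (ENSDARG00000040683), 2.57 and 2.90 for SLC15A1 (ENSDARG00000044528 and ENSDARG00000100315), 1.71 for VIL1, 1.86 for dpp4, 1.99 for mep1a.1 and 2.53 for mep1a.2. Chitinases gave 2.40 for chia.1, 2.28 for chia.2 and 3.83 for chia.3, and prss60.2 gave 0.98. Calls of CELA1 (ENSDARG00000043175) were lost without WT replicate 1 or DKO replicate 1, and that of prss60.2 without AKR1A1AKO replicate 4. With WT replicates 1 and 2 both left out, the interactions of ctrl (1.06, adjusted p = 0.07), CELA1 (ENSDARG00000043175; 1.37, adjusted p = 0.139) and prss60.2 (0.60, adjusted p = 0.112) were no longer called by edgeR, and that of amy2a was 1.24 (adjusted p = 0.00304).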

How the results depend on the processing

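When single libraries were left out, the members called ranged from 12 to 19 in DKO against WT, 31 to 33 in GLO1KO against WT, 12 to 28 in AKR1A1AKO against WT, 25 to 28 in DKO against GLO1KO, 10 to 18 in DKO against AKR1A1AKO and 30 to 33 for the interaction. The shares of all genes called were 22.9% to 26.7%, 22.1% to 26.2% and 8.66% to 13.5% in the comparisons against WT, in the same order. In the others they were 3.45% to 4.65%, 10.7% to 12.7% and 11.2% to 15.2%. In AKR1A1AKO against WT the counts of 12 and 15 came without AKR1A1AKO replicate 4 and replicate 2, where 9.03% and 10.8% of all genes were called. Calls that held whichever library was left out numbered 12 of 15, 31 of 32 and 12 of 26 in DKO, GLO1KO and AKR1A1AKO against WT, 24 of 28 and 10 of 14 in DKO against GLO1KO and AKR1A1AKO, and 29 of 31 for the interaction. Without WT replicates 1 and 2 together the counts were 10, 29, 11 and 28 in DKO, GLO1KO and AKR1A1AKO against WT and the interaction. The shares of all genes called were then 21.4%, 20.5%, 6.72% and 9.41%, and amy2a in DKO against WT reversed to 0.069. The single fit of all libraries called 8 members in DKO against AKR1A1AKO, and 20 in DKO against GLO1KO, beside 11.8% and 3.93% of all genes. The cause was not tested. Replicate numbers were not treated as pairs of samples, since not every same-numbered pair passed a correlation of deviations of 0.1 in any comparison. These correlations ran from -0.127 to 0.206 in GLO1KO against WT and reached 0.21 in AKR1A1AKO against WT. Whether same-numbered libraries shared a batch was not tested. With the replicate block the counts were 14, 32 and 27 in DKO, GLO1KO and AKR1A1AKO against WT, 28 and 15 in DKO against GLO1KO and AKR1A1AKO, and 31 for the interaction. The block gave calls for 24.8%, 24.3%, 13.6%, 3.94%, 11.6% and 14.2% of all genes, in the same order. Other settings kept each count within 1.5 times. Genes of under 1 CPM, such as cela1.2 and chia.5, rest on few counts.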
